A study of Mus musculus with 9 samples.

Results

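The mitochondrial Slc25 carriers are a gene family whose transcription was followed here through 3 organoid cultures of mouse duodenum. Members were taken by a rule on names, as every gene of the deposited GRO-seq table whose symbol begins with Slc25a and a digit (47 genes) together with Ucp1, Ucp2 and Ucp3. This gave 50 of the 24505 genes in the table. The rule was set with earlier results of these data known. GRO-seq (global run-on sequencing) reads RNA while polymerase is still making it, so its values describe transcription and not RNA or protein levels. The labels name 3 cultures with 2 GRO-seq libraries each: RANKL, given as the intestinal M-cell, which samples antigen from the gut lumen; ENRI, given as the enterocyte, the absorptive cell; and WENRC, given as the intestinal stem cell. The culture names are not spelled out in the labels and are used here as names; no genotype, strain, age or treatment time is given. All 3 cultures share the duodenal source. The ENRI and WENRC libraries carry a mouse number (1 or 2), whereas RANKL libraries carry a replicate number and no mouse. H3K27me3, the Polycomb histone mark, was mapped by ChIP-seq in 2 RANKL libraries, which the authors pooled, and in 1 WENRC library.

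SLC25 proteins sit in the inner mitochondrial membrane and carry nucleotides, phosphate, carboxylates, amino acids, acyl groups, cofactors and metal ions between cytosol and matrix. Each is built from repeats of a shared fold, and most work by exchange, taking 1 substrate in for another. A few members work elsewhere, such as Slc25a17 in the peroxisome and Slc25a46 in the outer membrane. In the gut lining such carriers link fuel oxidation, citrulline and arginine synthesis, haem and one-carbon metabolism to the rest of the cell.

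RefSeq promoters (GRCm38.p6) were found for 39 of the 50 members. Taking the promoter with most CG pairs in each gene, the 250 bases before the start held a median of 14 in these members. Over all 27025 genes with a RefSeq promoter, not only those tested here, the median was 6. Printed below, 5′ to 3′ on the gene's strand and ending at the base before the start, are 4 of them: Slc25a23 (chr17:57059864-57060113, minus strand), whose start carried more H3K27me3 in RANKL; Slc25a45 (chr19:5877572-5877821, plus strand), which had the largest change; Ucp2 (chr7:100493108-100493357, plus strand), the member with the highest value per kb; and Slc25a20 (chr9:108661886-108662135, plus strand), which held a motif. In a member with several promoters, the printed one has the highest end coordinate and need not be that with most CG pairs. Capitals mark CG pairs in the first 3 and the ETS motif in Slc25a20.
Slc25a23: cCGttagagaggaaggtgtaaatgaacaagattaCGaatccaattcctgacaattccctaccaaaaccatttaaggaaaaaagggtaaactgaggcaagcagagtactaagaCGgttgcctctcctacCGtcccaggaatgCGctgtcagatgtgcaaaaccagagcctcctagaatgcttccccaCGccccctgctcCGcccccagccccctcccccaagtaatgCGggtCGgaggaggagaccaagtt
Slc25a45: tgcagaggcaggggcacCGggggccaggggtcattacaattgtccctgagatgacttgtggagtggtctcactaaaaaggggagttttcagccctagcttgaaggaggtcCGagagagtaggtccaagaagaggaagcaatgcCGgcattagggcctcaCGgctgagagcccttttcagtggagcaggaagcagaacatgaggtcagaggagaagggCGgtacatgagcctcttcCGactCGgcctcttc
Ucp2: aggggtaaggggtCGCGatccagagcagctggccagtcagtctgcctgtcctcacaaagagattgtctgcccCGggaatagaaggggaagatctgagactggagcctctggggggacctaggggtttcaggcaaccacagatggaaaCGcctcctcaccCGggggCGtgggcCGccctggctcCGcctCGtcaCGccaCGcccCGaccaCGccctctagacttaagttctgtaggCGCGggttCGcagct
Slc25a20: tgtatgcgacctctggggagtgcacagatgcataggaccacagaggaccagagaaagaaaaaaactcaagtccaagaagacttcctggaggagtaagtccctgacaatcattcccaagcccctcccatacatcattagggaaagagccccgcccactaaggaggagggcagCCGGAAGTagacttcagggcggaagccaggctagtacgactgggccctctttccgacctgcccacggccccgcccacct
The first 3 held 9, 7 and 16 CG pairs. The members' median was taken over the richest promoter of each gene, so these counts are not placed against it. Motifs were searched on both strands of the window from 250 bases before to 50 after the start. The NRF1 consensus palindrome was in 0 of 39 members and 1.07% of all genes, and the ERR motif TNAAGGTCA in 0 of 39 and 1.43%. The ETS motif CCGGAAGT was in 1 of 39 members (2.56%), Slc25a20, and in 4.31% of all genes. These are letter matches in 1 window.

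M cell and enterocyte markers separated the cultures as labelled, whereas stem cell markers set ENRI apart but did not separate RANKL from WENRC in most genes. Of 13 M cell markers tested, 12 were called higher in RANKL than in ENRI and 11 higher than in WENRC, and none lower. Of 12 stem cell markers, 10 were higher in WENRC and 6 higher in RANKL than in ENRI, while RANKL against WENRC had 1 higher and 1 lower. Of 15 enterocyte markers, 8 were lower in RANKL and 13 lower in WENRC than in ENRI, and 6 were higher in RANKL than in WENRC. The summed enterocyte marker level, on the log2 scale, was 15.28 and 15.40 in RANKL, 16.47 and 17.21 in ENRI, and 14.28 and 13.45 in WENRC. Goblet, Paneth and tuft markers differed too: 4 of 7 goblet markers were higher in RANKL than in WENRC, and 3 of 7 Paneth and 3 of 5 tested tuft markers were higher in RANKL than in ENRI. Of the mesenchymal and immune lists, 2 of 9 and 6 of 8 genes were tested, with 1 and 0 called in RANKL against ENRI. The part of this mixture in the results below was not tested, and in bulk cultures fewer cells of a type and less RNA per cell cannot be told apart. Both mouse 1 libraries had Xist values of 4.52 and 5.42 against 10.90 to 12.18 in the other 4 libraries. The RANKL libraries were sequenced apart from the others per the file headers, so RANKL values and a sequencing batch cannot be told apart.

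All values below are the authors' normalized log2 values, with no read depth known, and a change is the first-named culture minus the second. A gene was tested where at least 2 libraries reached log2 of 10, and called at a Benjamini-Hochberg adjusted p (FDR) under 0.05 in limma over all 16563 tested genes. Of the 50 members, 47 were tested, and all 47 lay above the minimum in all 6 libraries. The 3 untested members were low everywhere. Slc25a31, the germ cell ADP/ATP exchanger, had 2.66 to 2.94 over the 6 libraries. Slc25a54, a relative of the ATP-Mg/phosphate carriers, had 3.17 to 3.31, and Ucp1, the uncoupling protein of brown fat, had 1.06 to 1.21.

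Levels between genes were compared only after subtracting the log2 of the gene length in kb. On this per-kb scale, averaged over 6 libraries, Ucp2 was the highest member at 8.05, followed by the ADP/ATP exchanger Slc25a5 at 7.17, the phosphate carrier Slc25a3 at 7.10, the dicarboxylate carrier Slc25a10 at 6.54 and the citrate carrier Slc25a1 at 6.54. Ucp2 led in each culture, with 8.27 in RANKL, 8.46 in ENRI and 7.41 in WENRC. The order of Slc25a5 and Slc25a3 changed with the culture: Slc25a3 had 7.84 and Slc25a5 7.66 in ENRI, against 6.54 and 6.64 in RANKL. The lowest value was that of the oxodicarboxylate carrier Slc25a21, at -2.62 over a gene of 484.838 kb. Low values are drawn toward each other on the deposited scale, which limits the order among low members.

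**Figure D1:**
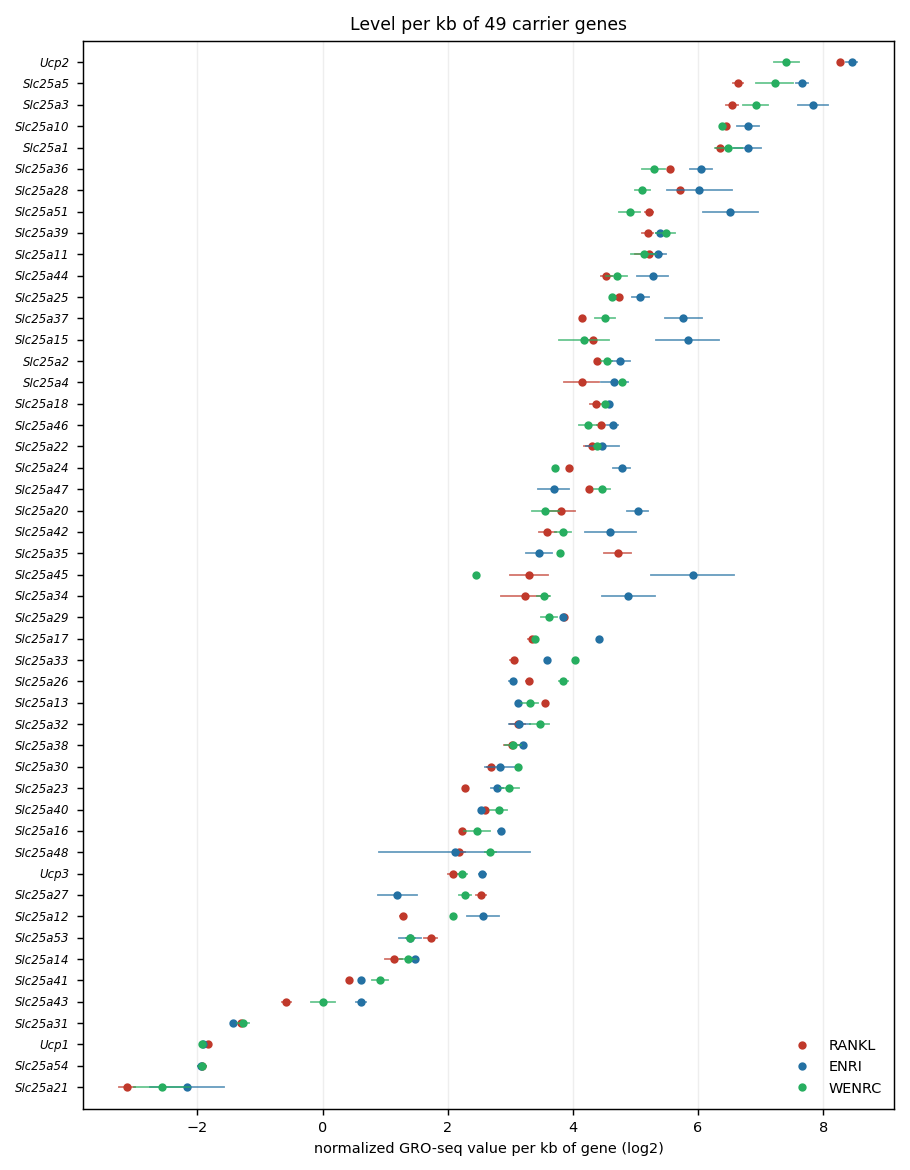
Level of 49 members in each culture, on the horizontal axis as the deposited log2 value minus log2 of gene length in kb, with members on the vertical axis ordered by the mean over 6 libraries. Points are means of 2 libraries and lines join the 2 libraries. Ucp2 lies highest with a mean of 8.05, and Slc25a21 lowest with -2.62.

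The comparison of RANKL with ENRI asked how carrier transcription differed between M cell and enterocyte cultures. Of 47 tested members, 13 were lower in RANKL and 2 higher, a share called of 31.9% against 20.9% of all tested genes. The share called lower was 27.7% against 10.5% of all genes, and the share called higher 4.26% against 10.4%. Among the lower members were the phosphate carrier Slc25a3, the ADP/ATP exchanger Slc25a5, the iron carrier Slc25a37, the carnitine carrier Slc25a20 and the ornithine carrier Slc25a15, at changes between -1.02 and -1.61. The higher members were Slc25a27 and Slc25a35. The median change of the members was -0.35, with 37 of 47 negative, against a median of -0.00 over all tested genes. The libraries of the 2 cultures did not overlap in 39 members (83%, against 64.7% of all genes), and in 32 both RANKL libraries lay below both ENRI libraries (68.1%, against 32.3%). By the authors' deposited table, 15 members passed an adjusted p of 0.05, as did 19.6% of all genes, and 14 of the 15 called here were among them with the same sign. With a single RANKL library the limma calls of members were lost, as were nearly all calls over all tested genes. The median change of the members was then -0.35 without RANKL 1 and -0.37 without RANKL 2. Without ENRI 1, 20 members were called lower and 4 higher, when 19.3% and 22.8% of all genes were. With the 4 compared libraries alone, 0 members were called higher and 9 lower, beside 5.61% and 6.01% of all genes.

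The comparison of WENRC with ENRI set stem cell against enterocyte cultures of the same 2 mice. Of 47 members, 10 were lower in WENRC and 2 higher, a share called of 25.5% against 14.6% of all tested genes. Called lower were 21.3%, against 9.74% of all genes, and called higher 4.26%, against 4.85%. The lower members were Slc25a45, Slc25a15, Slc25a51, Slc25a20, Slc25a37, Slc25a24, Ucp2, Slc25a17, Slc25a3 and Slc25a36, and the higher ones Slc25a27 and the S-adenosylmethionine carrier Slc25a26. The median change was -0.31 (31 of 47 negative), against -0.01 over all genes. The change had the same sign in both mice in 40 of 47 members, and in all 12 called ones; among all tested genes this held for 74.5%. The libraries did not overlap in 34 members (72.3%, against 58.5% of all genes), with WENRC below ENRI in 24 (51.1%, against 29.2%). The authors' deposited table had 11 members at an adjusted p under 0.05, beside 12.5% of all genes, and 10 of the 12 were among them with the same sign. The calls rested on the spread estimated over all 6 libraries. With the 4 compared libraries alone, limma called 0 members, as it called 0 of all tested genes. Without 1 RANKL or 1 WENRC library, all or nearly all calls over all tested genes were lost, and with them those of the members. Without ENRI 1, 17 were called lower and 4 higher, beside 19.4% and 20.7% of all genes. Upper quartile recentring gave 4 higher and 9 lower, beside 9.94% and 8.43% of all genes. It took the share of higher genes among all calls from 33.2% to 54.1%.

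RANKL against WENRC gave fewer member calls. The S-adenosylmethionine carrier Slc25a26 and the pyrimidine nucleotide carrier Slc25a33 were lower in RANKL, and Ucp2 was higher. These 3 of 47 members (6.38%) stood beside 12.1% of all tested genes; 4.26% were called lower against 3.62%, and 2.13% higher against 8.53%. The median change was -0.15, against -0.01 over all genes, and no member changed by more than 1 on the log2 scale. The libraries did not overlap in 32 members (68.1%, against 68.6% of all genes). All 3 calls were in the authors' deposited table too, where 8 members and 27.8% of all genes passed. The other members that passed there were Slc25a5, Slc25a12 and Slc25a23, lower in RANKL, and Slc25a28 and Slc25a35, higher in RANKL. Without 1 RANKL library all calls over all tested genes were lost, and without 1 WENRC library most were. The member calls were lost with them. With the 4 compared libraries alone, limma called 4 members higher and 5 lower, beside 18.1% and 13.2% of all genes. Upper quartile recentring gave 1 higher and 4 lower, beside 7.52% and 6.59% of all genes. It took the share of higher genes among all calls from 70.2% to 53.3%.

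RANKL and WENRC share the ENRI libraries in the comparisons with ENRI, so their results are not independent of each other. Side by side, 9 of 47 members (19.1%) were called in both, against 7.47% of all tested genes. In at least 1 of the 3 comparisons 18 members were called (38.3%, against 30.4%), and in all 3 comparisons 0 members and 1.12% of all genes. The highest mean lay in ENRI for 30 members (63.8%, against 36.5% of all tested genes), in WENRC for 12 and in RANKL for 5 (10.6%, against 32.5%). Replicates of ENRI differed more than those of RANKL: the SD of the replicate difference over all tested genes was 0.699 in ENRI, 0.421 in WENRC and 0.220 in RANKL, and over the members it was 0.600, 0.277 and 0.239. ENRI 2, which had the higher enterocyte marker sum, lay above ENRI 1 in 11 of the 13 members called lower in RANKL and in 7 of the 10 called lower in WENRC. The same held for 77.9% and 86.2% of all genes called lower in these comparisons, and for 48.4% of all tested genes. The labels name mice for ENRI and WENRC but do not say that the RANKL libraries came from separate animals, so p-values measure only the spread between these samples.

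**Figure D2:**
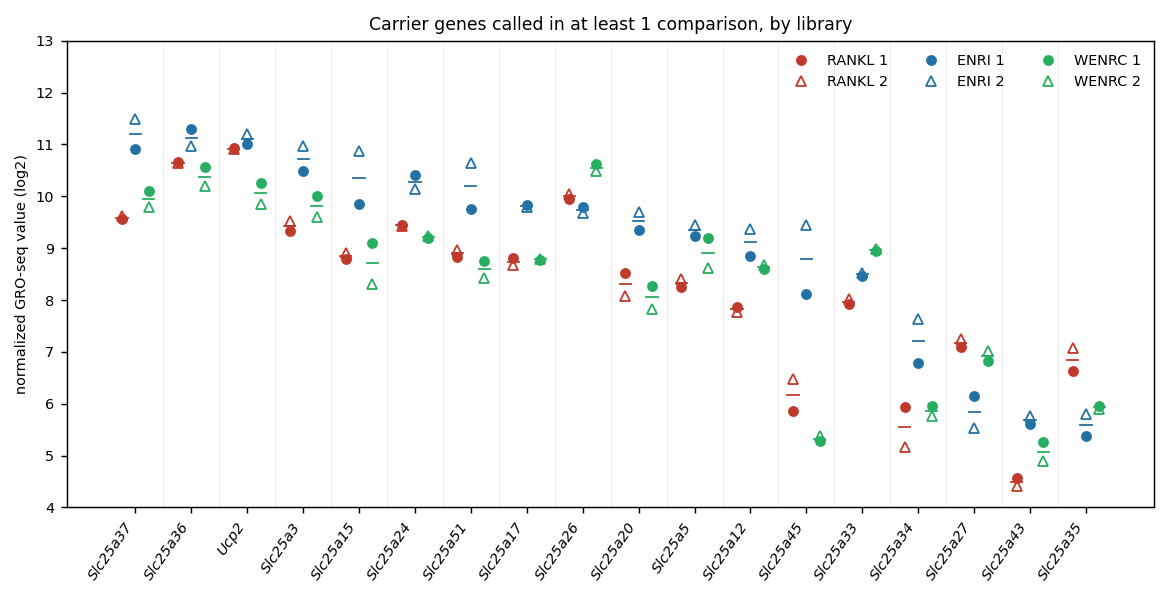
Deposited log2 values of the 18 members called in at least 1 comparison, 1 marker per GRO-seq library (colour for culture, circle or triangle for replicate 1 or 2, short line for the mean). Both ENRI markers lie above the rest except in Slc25a26, Slc25a27, Slc25a33 and Slc25a35.

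Of the adenine nucleotide carriers, 6 of 8 were tested, 2 were lower in RANKL and 1 lower in WENRC than in ENRI. Counts in this and the following classes stand beside 10.5% and 9.74% of all tested genes called lower in RANKL and in WENRC than in ENRI. The classes are small, and none was tested as a set. Slc25a5 (NM_007451, mm9 chromosome X, 34335592 to 34338803), an ADP/ATP exchanger of proliferating and many other tissues, had 8.24 and 8.40 in RANKL, 9.24 and 9.44 in ENRI and 9.20 and 8.62 in WENRC. Both RANKL libraries lay below all the others. The change from ENRI was -1.02 in RANKL (SE 0.222, limma FDR 0.0268). Slc25a4, the exchanger best known from heart and muscle, had 5.74 and 6.29 in RANKL, 6.75 and 6.32 in ENRI and 6.66 in both WENRC libraries, and was called in no comparison. On the per-kb scale Slc25a5 stood at 7.17, Slc25a4 at 4.53 and Slc25a31 at -1.34.

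Slc25a24 (NM_172685, chromosome 3, 108926067 to 108971327), a calcium-regulated carrier that exchanges ATP-Mg for phosphate, had 9.45 and 9.42 in RANKL, 10.42 and 10.14 in ENRI and 9.19 and 9.24 in WENRC. Both ENRI libraries were the highest, and its change was -0.84 in RANKL (SE 0.145, limma FDR 0.0145) and -1.06 in WENRC (SE 0.145, limma FDR 0.0129). Its relative Slc25a23 (NM_025877, chromosome 17, 57183134 to 57199286) had 6.30 and 6.28 in RANKL, 6.70 and 6.90 in ENRI and 7.15 and 6.85 in WENRC. The RANKL libraries were the lowest, but the change from WENRC of -0.71 did not pass (limma FDR 0.0703). In the authors' deposited table that comparison passed (adjusted p 0.0407). The short form Slc25a41 had 3.57 to 4.20, and Slc25a25 was called in no comparison.

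Among phosphate and uncoupling carriers, 6 of 7 were tested, and 3 were called. Slc25a3 (NM_133668, chromosome 10, 90579323 to 90586708) imports the phosphate used by ATP synthase. It had 9.32 and 9.53 in RANKL, 10.48 and 10.96 in ENRI and 10.01 and 9.61 in WENRC, and no culture overlapped another. Its change from ENRI was -1.30 in RANKL (SE 0.224, limma FDR 0.0146) and -0.91 in WENRC (SE 0.224, limma FDR 0.0468). The WENRC call was lost with quantile normalization, upper quartile recentring, no filter, no variance trend and without ENRI 2 (limma FDR 0.0568, 0.0539, 0.0584, 0.0589 and 0.0518).

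Ucp2 (NM_011671, chromosome 7, 107641867 to 107648138), an uncoupling protein found in many tissues, had 10.92 in both RANKL libraries, 11.02 and 11.20 in ENRI and 10.26 and 9.86 in WENRC. WENRC lay below the other cultures in both libraries. Ucp2 was lower in WENRC than in ENRI by a change of -1.05 (SE 0.175, limma FDR 0.0191), or 2.07-fold higher in ENRI. RANKL exceeded WENRC by 0.86 (SE 0.175, limma FDR 0.0309). Its neighbour Ucp3, known from muscle, had 5.75 and 5.91 in RANKL, 6.25 and 6.35 in ENRI and 6.05 and 5.91 in WENRC, with no call.

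Slc25a27 (NM_028711, chromosome 17, 43778849 to 43803964), described mainly in brain, ran opposite to most members. It had 7.10 and 7.26 in RANKL, 6.15 and 5.53 in ENRI and 6.83 and 7.03 in WENRC, so that both ENRI libraries were the lowest. The change from ENRI was 1.33 in RANKL (SE 0.253, limma FDR 0.0185) and 1.08 in WENRC (SE 0.253, limma FDR 0.0421). The WENRC call was lost with no filter (limma FDR 0.0516) and in the authors' deposited table (adjusted p 0.0731), which gives 1.99 for RANKL. Its relatives Slc25a14 and Slc25a30 were called in no comparison.

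Of 6 carboxylate carriers, Slc25a34 and Slc25a35, related to yeast oxaloacetate carriers, were called in RANKL against ENRI, in opposite directions. Slc25a34 (NM_001013780, chromosome 4, 141174740 to 141179749) had 5.93 and 5.17 in RANKL, 6.79 and 7.63 in ENRI and 5.97 and 5.76 in WENRC. Both ENRI libraries were above the rest, and its change was -1.66 in RANKL (SE 0.374, limma FDR 0.0298); the WENRC change of -1.35 did not pass (limma FDR 0.0626). The authors' deposited table gives -2.59 for RANKL, and -2.11 for WENRC, which passed there (adjusted p 0.00670). Slc25a35 (NM_028048, chromosome 11, 68781633 to 68786017) had 6.63 and 7.07 in RANKL, 5.38 and 5.80 in ENRI and 5.96 and 5.90 in WENRC. It was highest in both RANKL libraries, 1.26 above ENRI (SE 0.245, limma FDR 0.0197), or 2.09 in the authors' deposited table. It overlaps Rangrf by 31 bp on the other strand; Rangrf was also higher in RANKL than in ENRI (change 0.90, limma FDR 0.0201), and without stated strand handling their reads in the overlap cannot be told apart. The citrate carrier Slc25a1 (7.85 to 8.60) and the dicarboxylate carrier Slc25a10 (9.58 to 10.20) were called in no comparison, nor were Slc25a11 and Slc25a21.

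Of 9 amino acid carriers, 2 were lower in RANKL and 1 lower in WENRC than in ENRI. Slc25a15 (NM_181325, chromosome 8, 23486022 to 23509093) exchanges ornithine for citrulline and serves citrulline synthesis in the gut. It had 8.79 and 8.90 in RANKL, 9.86 and 10.86 in ENRI and 9.10 and 8.31 in WENRC. ENRI was highest in both libraries, though they stood 1 log2 unit apart. The change from ENRI was -1.52 in RANKL (SE 0.389, limma FDR 0.0418) and -1.65 in WENRC (SE 0.389, limma FDR 0.0428; 0.0506 with no filter), and within mouse 1 and mouse 2 it was -0.76 and -2.55.

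The aspartate/glutamate carriers Slc25a12 and Slc25a13 serve the malate-aspartate shuttle. Slc25a12 (NM_172436, chromosome 2, 71112352 to 71205611) had 7.87 and 7.78 in RANKL, 8.85 and 9.36 in ENRI and 8.59 and 8.67 in WENRC. RANKL was lowest in both libraries, by -1.29 against ENRI (SE 0.198, limma FDR 0.0110), or 2.44-fold higher in ENRI. The change of -0.81 from WENRC did not pass in limma (FDR 0.0514) but passed in the authors' deposited table (adjusted p 0.000921). Slc25a13 had 10.98 and 11.04 in RANKL, 10.58 in both ENRI libraries and 10.91 and 10.64 in WENRC, with no call. The branched-chain amino acid carrier Slc25a44, with 8.32 and 8.49 in RANKL against 8.90 and 9.39 in ENRI, did not pass (change -0.74, limma FDR 0.0610).

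Of the 12 acyl group and cofactor carriers, 4 were lower in RANKL than in ENRI; in WENRC 4 were lower and 1 higher. Slc25a20 (NM_020520, chromosome 9, 108564429 to 108586972), whose promoter is printed above, brings acylcarnitines into the matrix for fatty acid oxidation. It had 8.53 and 8.08 in RANKL, 9.35 and 9.70 in ENRI and 8.27 and 7.83 in WENRC. RANKL and WENRC overlapped and both lay under ENRI, by -1.22 (SE 0.243, limma FDR 0.0211) and -1.47 (SE 0.243, limma FDR 0.0188). Slc25a17 (NM_011399, chromosome 15, 81149351 to 81191195), the peroxisomal cofactor carrier, had 8.80 and 8.67 in RANKL, 9.83 and 9.79 in ENRI and 8.77 and 8.80 in WENRC. Its replicates were close, and ENRI was 2.11-fold above RANKL (change -1.08, SE 0.129, limma FDR 0.00531) and 2.04-fold above WENRC (change -1.03, SE 0.129, limma FDR 0.0114).

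Slc25a51 (NM_001009949, chromosome 4, 45408796 to 45421638) carries NAD into the matrix. It had 8.84 and 8.96 in RANKL, 9.75 and 10.64 in ENRI and 8.76 and 8.42 in WENRC, again with ENRI highest. The change from ENRI was -1.30 in RANKL (SE 0.301, limma FDR 0.0320) and -1.61 in WENRC (SE 0.301, limma FDR 0.0246).

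The pyrimidine nucleotide carriers Slc25a33 and Slc25a36 had different patterns. Slc25a33 (NM_027460, chromosome 4, 149118145 to 149148376) had 7.92 and 8.03 in RANKL, 8.47 and 8.52 in ENRI and 8.94 and 8.98 in WENRC. The 3 cultures were ordered without overlap, RANKL lowest and WENRC highest. RANKL differed from WENRC by -0.99 (SE 0.135, limma FDR 0.0104) and from ENRI by -0.53 (SE 0.135, limma FDR 0.0417), a call that was lost in the authors' deposited table (adjusted p 0.197) and, in limma, with no filter or no variance trend (FDR 0.0538 and 0.0542). Slc25a36 (NM_138756, chromosome 9, 96977430 to 97011460) had 10.66 and 10.63 in RANKL, 11.31 and 10.96 in ENRI and 10.56 and 10.19 in WENRC. It was highest in ENRI and lower in WENRC by -0.75 (SE 0.190, limma FDR 0.0499). That call was lost in limma with no filter, no variance trend and quantile normalization (FDR 0.0640, 0.0636 and 0.0831) and in the authors' deposited table (adjusted p 0.0757).

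Slc25a26 (NM_026255, chromosome 6, 94450308 to 94554646) brings S-adenosylmethionine, the methyl donor, into the matrix. It had 9.95 and 10.05 in RANKL, 9.80 and 9.69 in ENRI and 10.62 and 10.49 in WENRC. WENRC was highest, 0.81 above ENRI (SE 0.132, limma FDR 0.0180), with 0.82 in mouse 1 and 0.80 in mouse 2. RANKL lay below WENRC by -0.55 (SE 0.132, limma FDR 0.0482), a call lost in limma with no filter or no variance trend (FDR 0.0656 and 0.0715). The gene overlaps the stem cell gene Lrig1 by 123 bp on the other strand. Lrig1 was also higher in WENRC than in ENRI (change 1.05, limma FDR 0.0144) and lower in RANKL than in WENRC (change -0.69, limma FDR 0.0388), and reads in the overlap cannot be assigned to either gene. The folate carrier Slc25a32, the glutathione carriers Slc25a39 and Slc25a40 and the coenzyme A carriers Slc25a16 and Slc25a42 were called in no comparison. The nearest of these to the threshold was Slc25a42, with 8.26 and 8.54 in RANKL against 8.99 and 9.81 in ENRI (2.01-fold higher in ENRI, limma FDR 0.0575). It passed in the authors' deposited table (adjusted p 0.0207).

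Slc25a37 and Slc25a28, the mitoferrins, import iron for haem and iron-sulphur clusters. Slc25a37 (NM_026331, chromosome 14, 69859908 to 69903160) had 9.56 and 9.61 in RANKL, 10.90 and 11.50 in ENRI and 10.11 and 9.79 in WENRC. No culture overlapped another, and ENRI was 3.06-fold above RANKL (change -1.61, SE 0.228, limma FDR 0.00848) and 2.37-fold above WENRC (change -1.25, SE 0.228, limma FDR 0.0232). Slc25a28 had 9.15 and 9.23 in RANKL, 8.97 and 10.01 in ENRI and 8.70 and 8.45 in WENRC. The ENRI libraries lay on both sides of RANKL, and it was not called. In the authors' deposited table its RANKL value exceeded that of WENRC by 0.71 (adjusted p 0.00956). Slc25a46, which acts in fusion and fission at the outer membrane, ran from 8.99 to 9.62 and was not called.

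Of 5 members with no settled substrate, Slc25a45 (NM_134154, chromosome 19, 5878466 to 5885768) had the largest change of all members. It had 5.86 and 6.48 in RANKL, 8.12 and 9.45 in ENRI and 5.28 and 5.37 in WENRC. The 3 cultures did not overlap. ENRI was 6.12-fold above RANKL (change -2.61, SE 0.453, limma FDR 0.0146) and 11.0-fold above WENRC (change -3.46, SE 0.453, limma FDR 0.0122), with -2.84 in mouse 1 and -4.08 in mouse 2. These sizes rest on the ENRI library used: the changes were -3.28 and -4.12 without ENRI 1, and -1.95 and -2.79 without ENRI 2. The authors' deposited table gives -3.47 and -4.75. Slc25a43 (NR_075097, chromosome X, 34283627 to 34317302) had 4.56 and 4.42 in RANKL, 5.61 and 5.76 in ENRI and 5.26 and 4.89 in WENRC. RANKL was lowest, with a change from ENRI of -1.20 (SE 0.211, limma FDR 0.0155) and of -2.97 in the authors' deposited table. Slc25a47, Slc25a48 and Slc25a53 were called in no comparison; in Slc25a48 the ENRI libraries had 8.41 and 5.99, the widest replicate gap of any member.

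**Figure D3:**
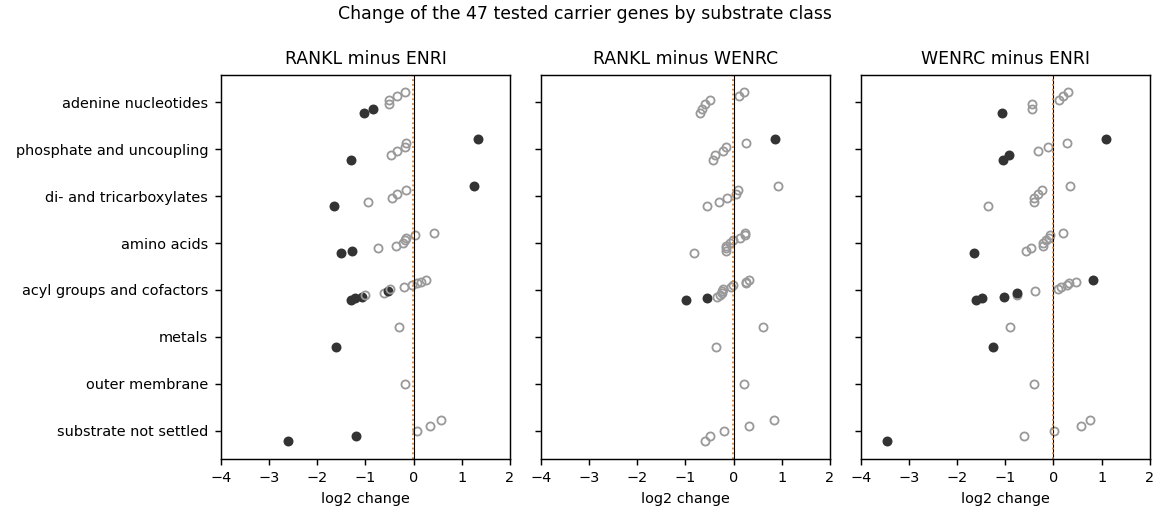
Change of the tested members in each comparison on the log2 scale, grouped by the class of substrate, with 1 circle per member, called members filled; a dotted line marks the median of all tested genes. Most points of RANKL against ENRI lie below 0, where the median of the members is -0.35.

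The other 29 tested members were called in no comparison, with mean values from 3.80 to 10.79 and SDs over the 6 libraries of 0.115 to 0.818. Gene order added little: the neighbours Slc25a43 and Slc25a5, 18.29 kb apart on chromosome X, were both lower in RANKL than in ENRI. The remaining close pairs had at most 1 member called: Slc25a24 beside the low Slc25a54, Ucp2 beside Ucp3, Slc25a23 beside Slc25a41, and Slc25a29 beside Slc25a47. In all, 7 members overlap another listed gene, among them Slc25a2, which lies inside 3 long gene models on the other strand, so its values are uncertain.

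Genes that work beside the carriers were examined as lists. Of 39 partner enzymes, 11 were lower and 5 higher in RANKL than in ENRI, with a median change of -0.39 (41% called, against 20.9% of all tested genes), and 12 were lower and 4 higher in WENRC than in ENRI, with a median of -0.21 (41%, against 14.6%). Against WENRC, 5 were higher and 6 lower in RANKL (28.2%, against 12.1%). The largest changes in RANKL against ENRI were in Otc, the mitochondrial enzyme that makes citrulline (-3.10, limma FDR 0.00485), Gldc of glycine cleavage (1.96, limma FDR 0.00362), the acyl-CoA dehydrogenase Acadl (-1.77, limma FDR 0.00806) and the branched-chain aminotransferase Bcat2 (1.46, limma FDR 0.00692). In WENRC against ENRI they were in the arginase Arg2 (-2.80, limma FDR 0.0103), Acadl (-1.71, limma FDR 0.0139), and the folate enzymes Shmt2 (1.66, limma FDR 0.0103) and Mthfd1l (1.63, limma FDR 0.0129).

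The enzymes next to Slc25a20 in fatty acid oxidation were singled out after their values were seen. The carnitine acyltransferases Cpt1a, Cpt2 and Crat changed by -1.05, -0.98 and -1.29 in RANKL against ENRI (limma FDR 0.0394, 0.0466 and 0.0225). In WENRC against ENRI they changed by -1.13, -1.19 and -1.58 (limma FDR 0.0417, 0.0361 and 0.0191). The dehydrogenases Acadm and Acadvl were not called in either. In the malate-aspartate shuttle, beside Slc25a12, Mdh1 and Got1 changed by -1.35 and -0.92 in RANKL against ENRI (limma FDR 0.0127 and 0.0327), and Got2 by -0.76, which did not pass (limma FDR 0.0591).

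The other mitochondrial lists had shares called near or below the 20.9% of all tested genes in RANKL against ENRI: 19.2% of other mitochondrial transport genes, 6.67% of outer membrane genes, 16.7% of citric acid cycle genes and 22.2% of regulators. Of 26 mitochondrial transport genes not among the members, 4 were lower and 1 higher in RANKL than in ENRI, with a median of -0.37, close to that of the members. This list was drawn up to name Mtch1 and Mtch2 too, so it is not a set wholly apart from the carrier family. Of 15 outer membrane genes 1 was lower, and of 18 citric acid cycle genes 1 was lower and 2 higher. Malate dehydrogenase Mdh2 was the lower one (-1.48, limma FDR 0.027), and Idh2 and Idh3b were higher by 0.93 and 0.82. Of 18 regulators of mitochondrial gene expression, 2 were higher and 2 lower in RANKL than in ENRI. The orphan receptor Esrrg, also a member of the M cell list, was higher by 6.26, and Pprc1 by 1.43; the fatty acid sensor Ppara changed by -1.66 and the coactivator Ppargc1a by -0.98. Ppara was also lower in WENRC than in ENRI, with a change of -2.51.

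H3K27me3 regions were called by the authors in each culture with the other as control, so each table holds 1 direction and the differences have no replicate check. A RANKL-higher region whose nearest start, per the file, was a member lay within 5 kb of the start in 9 of 47 tested members (19.1%), against 18% of all tested genes. A WENRC-higher region did so in 1 member, Slc25a53 (2.13%, against 5.01%). The 9 were Slc25a4, Slc25a5, Slc25a14, Slc25a17, Slc25a21, Slc25a23, Slc25a26, Slc25a43 and Slc25a53. All 4 X-linked members were among them, as were 59.0% of all tested X-linked genes; of the other members it was 5 of 43 (11.6%), against 16.7%. Xist and Ddx3y differed between mice in GRO-seq, as given above, and the H3K27me3 labels name no mouse. The part of this in the X-linked regions was not tested.

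Regions at the start itself were found in 3 of these members. At Slc25a23 the region on mm9 chromosome 17, 57198783 to 57199546, spanned the start, reaching from -260 to 503 bases relative to it, into the first exon. It held 38 RANKL tags against 6.3 WENRC tags after the authors' scaling, an authors' fold of 6.03. At Slc25a43 a region of chromosome X, 34283626 to 34284126, began at the start and held 37 against 9 tags (authors' fold 4.11). At Slc25a21 a region over the first exon, chromosome 12, 58297538 to 58298467, held 67 against 30.6 tags (authors' fold 2.19), and this long gene was the nearest to 18 RANKL-higher regions in all.

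The other regions lay farther off. In the first intron of Slc25a17, chromosome 15, 81188152 to 81189458, 47 tags stood against 10.8 (authors' fold 4.35). Just past the end of the short gene Slc25a5, chromosome X, 34339053 to 34339553, 22 stood against 3.6 (authors' fold 6.11). Regions near Slc25a4, Slc25a14 and Slc25a26 had authors' folds of 3.7, 2.62 and 3.15. Slc25a53 had regions in both directions in or next to the gene: RANKL-higher with 36 against 13.5 tags and 29 against 11.7, and WENRC-higher with 18.9 scaled tags against 6.

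**Figure D4:**
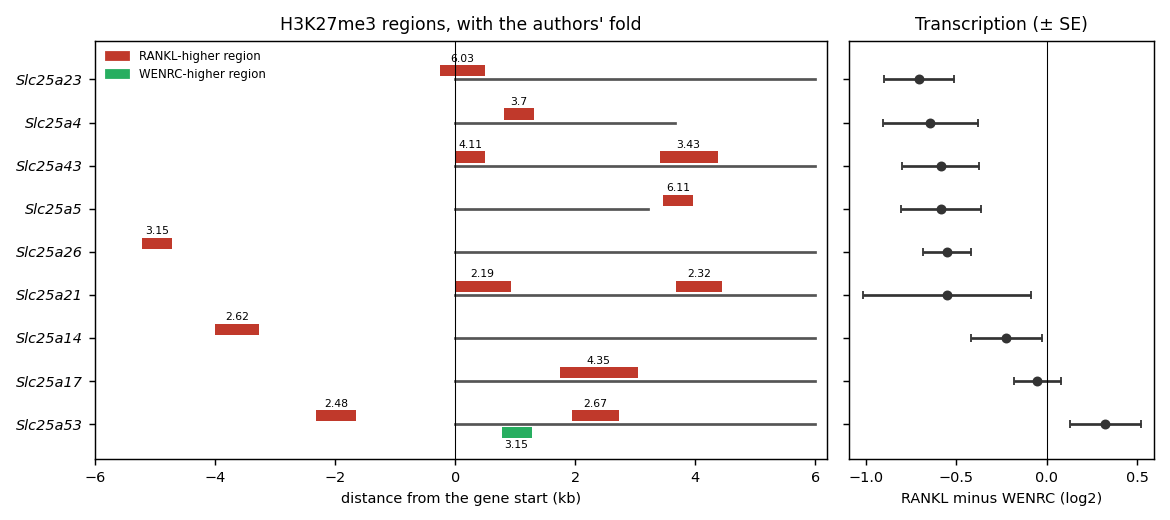
H3K27me3 regions near the starts of members, drawn on the left by distance from the start in kb along the gene's direction (grey lines are gene bodies as far as the axis reaches, numbers are the authors' folds), and on the right the GRO-seq change of RANKL minus WENRC with its SE. Slc25a23 and Slc25a43 have regions at the start with authors' folds of 6.03 and 4.11.

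Of the 9 members with a RANKL-higher region, 8 had a negative GRO-seq change in RANKL against WENRC, with a median of -0.55. Among the 38 members without one, 22 were negative (57.9%) and the median was -0.11. Over all tested genes with such a region 57.7% were negative, with a median of -0.09, and over those without one 49.1%, with a median of 0.01. A link between the mark and the transcription of members was not tested. Of the 9, Slc25a26 was called lower in RANKL than in WENRC and the others were not called. With a distance of 1 kb in place of 5 kb, 3 members had a RANKL-higher region, as did 10.4% of all tested genes; with an authors' fold of at least 4 there were 4 members, and 3.30% of all tested genes.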

How the data were processed

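GRO-seq was analysed for 6 libraries and H3K27me3 for 3. Per the submitters' processing notes, Bowtie2 (2.3.4.1), HOMER and DESeq2 were used with mm9. Reads were counted per RefSeq gene over its full length by the authors, per the file headers (analyzeRepeats.pl, 1 transcript a gene), who then ran getDiffExpression.pl for all pairs. The deposited GRO-seq values are log2 values normalized between libraries by the authors, with low values drawn together; the transform, strand handling and read depth are not given in the sources used here. The deposited table also holds the authors' log2 fold changes and p-values. H3K27me3 tags of pooled RANKL are deposited as counts; the authors scaled WENRC tags to the RANKL depth, a signal, and give the fold as a ratio of tags.

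Limma (3.58.1, R 4.3.3) with a variance trend was fitted to the log2 values as deposited, with no pseudocount, over 6 libraries and 3 group means; tests were two-sided and adjusted by Benjamini-Hochberg over 16563 genes that reached log2 of 10 in at least 2 libraries. Of 24505 genes, 2131 were listed at 0 in all libraries. On simulated data for RANKL against ENRI (16563 genes, 200 changed) the fit recovered 97.0%, 71.6% and 22.4% of genes changed by 4, 2 and 1 on the log2 scale. The simulation drew all libraries of a gene independently and with the same spread. In the data the SD of the replicate difference was 0.699 in ENRI and 0.220 in RANKL, so these shares need not hold there. The mouse number pairs ENRI with WENRC per the labels, and their deviations had a correlation across genes of 0.414. RANKL 1 had -0.205 with ENRI 1 and -0.323 with WENRC 1 and was not paired.

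Members and lists were chosen with earlier results of these data known. Members called in any comparison, the UCP genes and ADP/ATP exchangers, the 5 highest per kb, untested members and those with an H3K27me3 region within 5 kb were named; in other lists, up to 4 called genes of largest change, and any further ones were chosen after their values were seen. Alternatives varied the libraries in the fit, pairing, scaling, filter, variance model, tool and region distance. Promoters are RefSeq's and were matched by symbol. The values of 1 member are not reported here.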

Additional observations from a re-analysis of the deposited data

Results flagged for a closer look

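Slc25a48, a carrier with no settled substrate, moved in opposite directions in the 2 mice. WENRC minus ENRI was -0.73 in mouse 1 and 1.87 in mouse 2 on the log2 scale. ENRI had 8.41 in mouse 1 and 5.99 in mouse 2, a gap of 2.42, while WENRC had 7.68 and 7.86, a gap of 0.18. With 1 library per mouse and culture the difference between mice was not tested.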

How the results depend on the processing

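Recomputed under the alternatives, the 30 named calls (a member in a comparison) gave 431 values, of which 283 stayed past the threshold, 148 did not and none changed direction. The 30 were chosen for passing in the main fit. Direction was free to change only where an alternative altered the values or the libraries of the cultures compared. The others kept the group means of the main fit. The replicate block took mouse number as a covariate for ENRI and WENRC, and 0 for both RANKL libraries, which enter no block. With it, 2 members were higher and 17 lower in RANKL against ENRI, beside 14.8% and 13.9% of all tested genes. RANKL against WENRC had 1 and 3 (11.6% and 6.14%), and WENRC against ENRI 3 and 10 (8.72% and 12.7%). All 30 named calls stood. With the 4 compared libraries alone, 0 members were higher in RANKL against ENRI, beside 5.61% of all genes. RANKL against WENRC had 4 higher and 5 lower (18.1% and 13.2%). WENRC against ENRI had 0 higher and 0 lower, among members as among all genes. Adding the replicate block to the last, after seeing the data, gave 0 and 1 (0.115% and 0.634%). In the authors' deposited table the median of RANKL against ENRI was -0.60. RANKL against WENRC had 3 higher and 5 lower there, beside 27.8% of all genes in either direction. WENRC against ENRI had 11, of which 1 was higher, beside 12.5%. With no filter, RANKL against WENRC had 1 lower (2.06% of all genes) and WENRC against ENRI 1 higher (2.59%). With no variance trend RANKL against WENRC had 1 lower (3.57%). Upper quartile recentring gave 4 lower in RANKL against WENRC (6.59% of all genes) and 4 higher in WENRC against ENRI (9.94%). It moved the median of all genes to -0.12 and 0.10 there. Quantile normalization gave 2 higher and 4 higher in these comparisons (7.7% and 9.86% of all genes). Of all 50 members, 3 had a RANKL-higher region within 1 kb and 14 within 50 kb, beside 10.4% and 28.7% of all tested genes. At a fold of at least 4 there were 4, beside 3.30%. WENRC-higher regions were near 0, 6 and 0, beside 1.09%, 17.7% and 1.23%, and over the gene body in 2, beside 13.1%. The causes of these differences were not tested, beyond the fewer libraries or regions that some alternatives use.

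Leaving out each library in turn gave 0 to 4 higher and 0 to 20 lower in RANKL against ENRI (median -0.48 to -0.35), 0 to 4 and 0 to 5 in RANKL against WENRC (median -0.22 to -0.08), and 0 to 4 and 0 to 17 in WENRC against ENRI (median -0.39 to -0.17). Read depth is unknown, so no limit of detection can be given.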
